A study of Mus musculus with 12 samples.

Results

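Blood vessels in preparations of pancreatic islets were followed through 36 genes of endothelial cells and of angiogenesis. These were taken from the 17305 named genes on the arrays. The members were chosen by name, with earlier results of these data known. They are 13 junction and surface molecules, 4 enzyme, peptide and peptide receptor genes, 4 transcription factors, 4 ligands of the vascular endothelial growth factor (VEGF) family, 5 VEGF receptors and co-receptors, 4 genes of the angiopoietin and TIE system and 2 lymphatic genes. Each gene was read from its probe with the highest mean signal, and 23 of the 36 have 1 probe. A probe was matched to its gene through the RefSeq accession that the scanner files give for it.

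The islets came from 4 genotypes on a mixed C57BL/6 and Sv129 background, all fed chow and 4 weeks old by the labels (the methods of the study give females and a slightly higher age). The genotypes were WT, PPARγ2KO (no PPARγ2 isoform of the nuclear receptor PPARγ), ob/ob (no leptin, and obese) and POKO (neither leptin nor PPARγ2, obese and diabetic early). Both deletions act in the whole animal and not only in islet cells. Islets were freed with collagenase, picked by hand and cultured overnight, and each array holds the islets of several mice pooled, with n = 3 arrays per genotype and 12 in all. The lean genotypes are WT and PPARγ2KO, and the obese genotypes are ob/ob and POKO.

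The islet is crossed by a dense bed of fenestrated capillaries. Beta cells release VEGF-A, which acts on the receptor KDR (VEGFR2) of the endothelial cell, while FLT1 (VEGFR1) also binds VEGF-B and placental growth factor and FLT4 (VEGFR3) binds VEGF-C. Angiopoietins signal through the endothelial receptor TEK (TIE2), with TIE1 as its partner, and endothelial cells are held together by VE-cadherin, encoded by Cdh5. Transcription factors of the ETS and SOXF families keep many of these genes on in endothelial cells.

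Of the 36 genes, 20 have an upstream window in the RefSeq promoter table (build GRCm38.p6), and 5 of these are among the 12 genes that were higher in ob/ob vs. WT. The windows of 4 of the 5 are shown because these genes rose together, each as the 250 bases before the transcription start, 5′ to 3′ on the strand of the gene, with GGAAG on either strand, the core that ETS factors read, in capitals (CTTCC where it lies on the opposite strand). Cd34, Robo4 and Tie1 have 1 start in the table. For Vegfa, with 2, the start further upstream is shown.
Cd34 (chr1:194938571-194938820, plus strand): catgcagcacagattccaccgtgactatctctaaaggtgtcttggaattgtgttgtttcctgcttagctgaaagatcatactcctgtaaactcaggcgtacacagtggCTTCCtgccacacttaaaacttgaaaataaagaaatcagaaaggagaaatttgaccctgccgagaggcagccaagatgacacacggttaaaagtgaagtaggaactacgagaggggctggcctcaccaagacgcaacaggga
Robo4 (chr9:37401722-37401971, plus strand): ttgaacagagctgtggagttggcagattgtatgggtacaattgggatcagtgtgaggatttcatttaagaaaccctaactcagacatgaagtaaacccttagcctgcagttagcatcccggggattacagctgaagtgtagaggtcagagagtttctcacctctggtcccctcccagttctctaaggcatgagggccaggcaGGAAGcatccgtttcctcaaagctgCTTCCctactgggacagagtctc
Tie1 (chr4:118489850-118490099, minus strand): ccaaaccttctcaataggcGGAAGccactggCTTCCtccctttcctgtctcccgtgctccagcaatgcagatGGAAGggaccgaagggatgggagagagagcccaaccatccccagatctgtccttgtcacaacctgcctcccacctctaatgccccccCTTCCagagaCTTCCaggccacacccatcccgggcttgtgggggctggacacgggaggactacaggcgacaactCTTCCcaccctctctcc
Vegfa (chr17:46032378-46032627, minus strand): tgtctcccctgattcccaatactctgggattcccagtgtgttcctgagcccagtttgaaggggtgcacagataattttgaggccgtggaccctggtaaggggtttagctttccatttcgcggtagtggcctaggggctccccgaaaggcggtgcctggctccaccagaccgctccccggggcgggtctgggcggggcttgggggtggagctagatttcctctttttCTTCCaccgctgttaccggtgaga
The Tie1 window holds 6 copies of GGAAG, the Robo4 window 2, and the Cd34 and Vegfa windows 1 each. In all, 15 of the 20 members have GGAAG in a window, against 66.9% of the 27025 genes in the table and 64.1% of its 32851 windows. The longer site CAGGAAG, which contains GGAAG, was found for 6 of the 20 members (Apln, Cd34, Egfl7, Emcn, Erg and Robo4) against 12.1% of all genes. ACAAT, the core read by SOX factors, was found for 6 members against 30.9% of all genes, and ACGTG, the core of the hypoxia response element, for 2 (Clec14a and Vegfa, the latter in the window of its other start) against 18.5%. A letter match describes the window and does not show a bound site.

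Endothelial genes were detected, but detection does not set them apart. The measured acinar, duct and fibroblast genes were also all above background on every array. All 6 defining endothelial markers (Pecam1, Cdh5, Kdr, Tie1, Tek and Emcn) were well above background on each of the 12 arrays, as were 31 of the 36 genes. The other 5 were Angpt1 (0 arrays), Flt4 (1), Clec14a (2), Prox1 (5) and Erg (7). No array duplicated another, with correlations between arrays of 0.959 to 0.989 over all probes. The arrays of the obese genotypes were the brighter ones, with a median processed signal of 30.7 to 40.6 in ob/ob and 31.6 to 33.6 in POKO against 20.9 to 27.0 in WT and 23.0 to 30.4 in PPARγ2KO, and 54.3 to 57.5% of the spots were well above background in WT against 60.4 to 64.9% in ob/ob. The part of array brightness in the results was not tested beyond the change of scaling. The 3 slides each hold replicate 1, 2 or 3 of every genotype, so slide could be separated from genotype, but each genotype always lies at the same place on the slide, and place and genotype cannot be told apart.

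In ob/ob vs. WT islets, endothelial genes were higher as a group. An adjusted p of at most 0.05 (limma, Benjamini-Hochberg over 41174 probes) was reached by 12 of the 36 members, all of them higher in ob/ob: the surface and junction genes Icam2, Cd34, Plvap, Mmrn2, Esam, Robo4, Egfl7 and Cdh5, the receptor component Ramp2, the transcription factor Sox18, the receptor Tie1 and the growth factor Vegfa. Over all probes 4.92% were called higher and 6.14% lower. The median log2 fold change of the 36 members was 0.89 (1.86-fold), against −0.08 for all probes, and 33 of the 36 were above 0, against 39.7% of all probes. All probes include dim ones, and 20509 of the 41174 were above background on every array. The median log2 fold change of those 20509 was −0.11, and no share was taken over them alone. With limma 24 members had an unadjusted p below 0.05, against 31.1% of all probes. The 3 ob/ob arrays lay above the 3 WT arrays with no overlap for 21 members, against 11.3% of all probes, and below them for 2, Nrp1 and the undetected Angpt1, against 29.8%. On every one of the 3 slides 24 members were higher in ob/ob, a count for which no share of all probes was taken. When the 75th percentile of each array was used for scaling instead, the median of all probes moved by −0.11, and the 12 genes were called and higher there too. Because islets were measured in bulk, a larger share of endothelial cells and more RNA per endothelial cell cannot be told apart.

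These calls rest on single arrays to a large degree. The count of members called in ob/ob vs. WT was 0 without WT replicate 2 or without ob/ob replicate 3, 1 without WT replicate 1 (Cd34) or without ob/ob replicate 2 (Icam2), and 5, 7 and 6 without POKO replicate 1, 2 and 3, whose arrays enter only the estimate of the spread. It was 18 without WT replicate 3, and 10 to 14 without ob/ob replicate 1 or any PPARγ2KO array. The share of all probes called higher moved with it, to 0.265% without WT replicate 2 and to 8.32% without WT replicate 3. A fit on the ob/ob and WT arrays alone called only Icam2 and Cd34. None of the 12 genes changed sign under any of 23 alternatives, although the log2 fold change of Vegfa was only 0.45 when its 4 probes were averaged. Leaving out 1 array could not have changed a sign, because every ob/ob array was above every WT array for each of the 12. The kept signs are therefore no separate evidence on the direction.

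**Figure D1:**
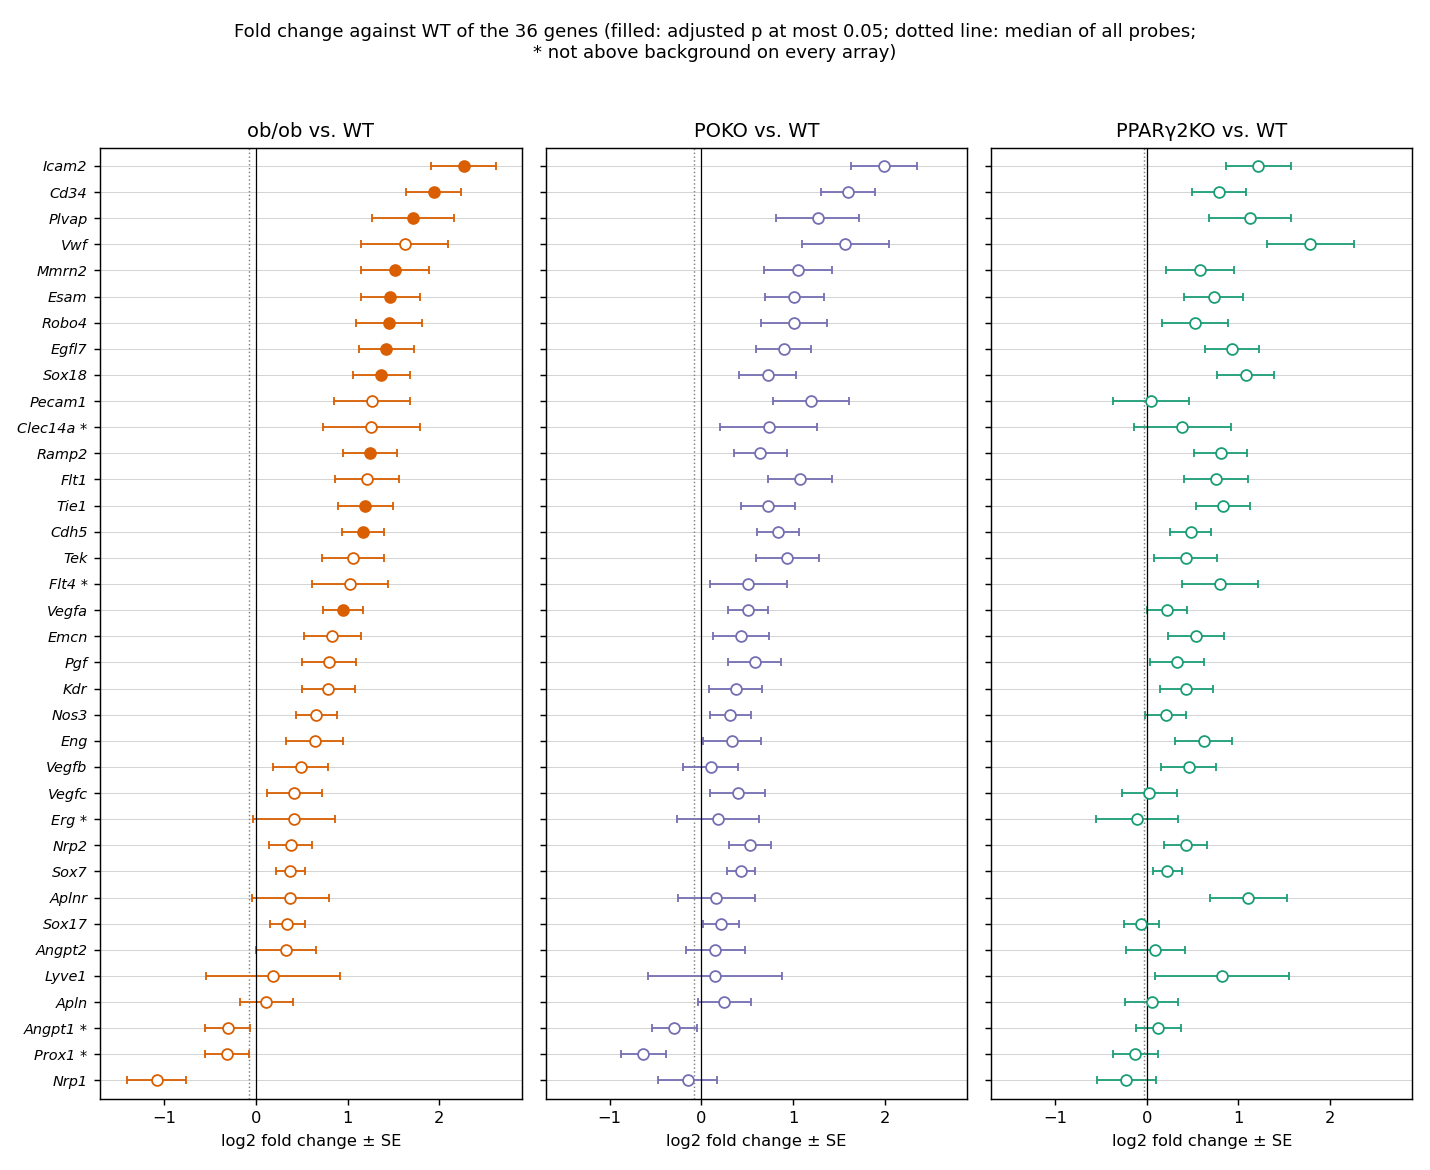
Fitted log2 fold change against WT (x axis, bars are the standard error of the limma fit) of all 36 genes (rows) in ob/ob, POKO and PPARγ2KO, with n = 3 arrays per genotype. The 12 filled points, all in ob/ob vs. WT, passed the adjusted p of 0.05, and 33 of 36 points lie above 0 in ob/ob vs. WT, 33 in POKO vs. WT and 32 in PPARγ2KO vs. WT.

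Of the 13 junction and surface genes, 8 were called higher in ob/ob vs. WT, against 4.92% of all probes. All 13 had a log2 fold change above 0 (median 1.45), against 39.7% of all probes. Values below are log2 signals after quantile normalization, given for replicates 1, 2 and 3 in that order. Cdh5, which encodes the adherens junction protein VE-cadherin, read 9.15, 8.80 and 9.73 in WT, 9.46, 9.98 and 9.67 in PPARγ2KO, 10.49, 10.20 and 10.50 in ob/ob and 9.99, 10.25 and 9.95 in POKO. Every ob/ob array was above every WT and PPARγ2KO array. The log2 fold change in ob/ob vs. WT was 1.17 ± 0.23 (SE), adjusted p = 0.0250, and within the 3 slides the difference was 1.34, 1.40 and 0.77. Esam, a tight junction adhesion molecule of endothelium and platelets, read 8.38, 8.08 and 9.32 in WT, 8.997, 9.28 and 9.70 in PPARγ2KO, 9.97, 9.85 and 10.35 in ob/ob and 9.45, 9.95 and 9.43 in POKO. Again the ob/ob arrays stood above all lean arrays, with WT replicate 3 close to the PPARγ2KO arrays. Its log2 fold change was 1.46 ± 0.32 (SE), adjusted p = 0.0305.

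Icam2 and Cd34 gave the largest changes among the members called. Icam2, an adhesion molecule that leucocytes bind on resting endothelium, read 7.81, 7.70 and 8.30 in WT, 8.19, 9.69 and 9.59 in PPARγ2KO, 10.18, 9.97 and 10.46 in ob/ob and 9.98, 10.002 and 9.81 in POKO. All 6 obese arrays were above all 6 lean arrays, while PPARγ2KO replicates 2 and 3 lay well above the WT arrays. The log2 fold change in ob/ob vs. WT was 2.27 ± 0.36 (SE), adjusted p = 0.0172, a 4.81-fold difference. Cd34, a sialomucin of capillary endothelium and of blood progenitors, read 8.65, 8.38 and 9.28 in WT, 8.93, 9.69 and 10.06 in PPARγ2KO, 10.55, 10.78 and 10.81 in ob/ob and 10.19, 10.51 and 10.42 in POKO. Here too the 6 obese arrays were above the 6 lean arrays. For Cd34 the log2 fold change was 1.94 ± 0.30 (SE), adjusted p = 0.0160, or 3.84-fold, and the within-slide differences were 1.90, 2.40 and 1.53. Both genes, like Pecam1, are also known on blood cells.

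Plvap forms the diaphragms of endothelial fenestrae and caveolae. It read 9.54, 8.72 and 10.83 in WT, 10.79, 10.76 and 10.91 in PPARγ2KO, 11.08, 11.24 and 11.91 in ob/ob and 10.98, 11.21 and 10.71 in POKO. WT replicate 3 stood far above the other WT arrays and reached the PPARγ2KO level, yet stayed below the ob/ob arrays. Plvap gave a log2 fold change in ob/ob vs. WT of 1.71 ± 0.45 (SE), adjusted p = 0.0430. Robo4, an endothelial roundabout receptor that stabilises vessels, read 10.44, 9.97 and 11.33 in WT, 10.55, 11.12 and 11.66 in PPARγ2KO, 12.17, 11.89 and 12.02 in ob/ob and 11.35, 11.92 and 11.52 in POKO. The ob/ob arrays were again above all lean arrays, with a log2 fold change of 1.45 ± 0.36 (SE), adjusted p = 0.0383. Mmrn2, a multimerin of the endothelial matrix, read 8.97, 8.71 and 10.01 in WT, 9.42, 9.54 and 10.47 in PPARγ2KO, 11.07, 10.75 and 10.41 in ob/ob and 10.16, 10.46 and 10.22 in POKO. The ob/ob arrays were above the WT arrays but overlapped with PPARγ2KO replicate 3. Its log2 fold change was 1.51 ± 0.37 (SE), adjusted p = 0.0373. Egfl7, a protein secreted by endothelial cells, read 10.76, 10.35 and 11.40 in WT, 11.29, 11.98 and 12.03 in PPARγ2KO, 12.37, 11.99 and 12.42 in ob/ob and 11.49, 12.07 and 11.65 in POKO. The WT arrays were the lowest of all, with the exception of WT replicate 3, which passed PPARγ2KO replicate 1. For Egfl7 the log2 fold change was 1.42 ± 0.30 (SE), adjusted p = 0.0278.

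Pecam1, the platelet and endothelial adhesion molecule CD31, had a different pattern across the lean arrays. It read 7.01, 6.55 and 7.41 in WT, 6.58, 6.37 and 8.15 in PPARγ2KO, 8.39, 8.07 and 8.33 in ob/ob and 8.23, 8.28 and 8.04 in POKO. PPARγ2KO replicate 3 was near the obese arrays, while PPARγ2KO replicates 1 and 2 were near or below the WT arrays. Its log2 fold change in ob/ob vs. WT was 1.27 ± 0.42 (SE), adjusted p = 0.0751, short of the limit. Emcn, an endothelial sialomucin, read 10.68, 10.18 and 11.60 in WT, 11.16, 11.37 and 11.55 in PPARγ2KO, 11.59, 11.51 and 11.86 in ob/ob and 11.10, 11.52 and 11.14 in POKO. WT replicate 3 lay inside the range of ob/ob, and the log2 fold change was 0.83 ± 0.31 (SE), adjusted p = 0.104. The remaining junction and surface genes, Eng, Vwf and Clec14a, were not called in ob/ob vs. WT, at log2 fold changes of 0.64, 1.62 and 1.26. Vwf, the clotting factor stored in endothelial granules, was named after its values were seen. It had a WT mean of 7.88 ± 0.45 (SD, n = 3) against 9.67 ± 0.72 in PPARγ2KO, 9.51 ± 0.76 in ob/ob and 9.46 ± 0.51 in POKO, and its adjusted p was 0.0567 in ob/ob vs. WT. Clec14a was above background on 2 ob/ob arrays and on no array of another genotype.

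Among the enzyme, peptide and receptor genes, Ramp2, the partner that turns the calcitonin receptor-like receptor into an adrenomedullin receptor, was called. It read 8.54, 8.86 and 9.41 in WT, 9.10, 10.06 and 10.07 in PPARγ2KO, 10.09, 10.17 and 10.27 in ob/ob and 9.38, 9.82 and 9.53 in POKO. The ob/ob arrays were tightly grouped and above all others, and PPARγ2KO replicates 2 and 3 were next. Its log2 fold change was 1.24 ± 0.29 (SE), adjusted p = 0.0340. Nos3, the endothelial nitric oxide synthase, the apelin receptor gene Aplnr and the apelin gene Apln were not called, with 0.66, 0.37 and 0.11 in ob/ob vs. WT. Of the transcription factors, Sox18 (SOXF family) was called. It read 8.20, 7.77 and 9.04 in WT, 9.09, 9.71 and 9.46 in PPARγ2KO, 9.71, 9.53 and 9.88 in ob/ob and 8.97, 9.43 and 8.78 in POKO. The WT arrays were below all ob/ob arrays, and PPARγ2KO overlapped with ob/ob. Its log2 fold change was 1.37 ± 0.31 (SE), adjusted p = 0.0325. The other SOXF genes Sox7 and Sox17 read 0.38 and 0.34 on the same scale, neither called, and Erg, an ETS factor, was above background on 7 arrays only.

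The VEGF ligands had 1 call among 4, Vegfa. Its brightest probe read 11.05, 11.37 and 11.69 in WT, 11.49, 11.34 and 11.95 in PPARγ2KO, 11.99, 12.41 and 12.58 in ob/ob and 11.90, 12.02 and 11.74 in POKO. Every ob/ob array was above every other array except POKO replicate 2, which passed ob/ob replicate 1. The log2 fold change in ob/ob vs. WT was 0.95 ± 0.22 (SE), adjusted p = 0.0333, a 1.93-fold difference, with 0.94, 1.03 and 0.89 on the 3 slides. The 4 Vegfa probes did not give the same size. The second brightest, which carries the same transcript accession, read 11.41, 11.43 and 11.17 in WT, 11.53, 10.75 and 11.58 in PPARγ2KO, 11.63, 11.79 and 11.93 in ob/ob and 11.70, 11.96 and 11.54 in POKO, with a log2 fold change of 0.45, adjusted p = 0.193. The third and the fourth, both to another transcript of the gene, gave 0.32, adjusted p = 0.485 and 0.08, adjusted p = 0.843. All of them had the sign of the brightest probe, but the call belongs to 1 probe of 4. The 4 probes together gave, as their mean, an adjusted p of 0.0985 for Vegfa.

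**Figure D2:**
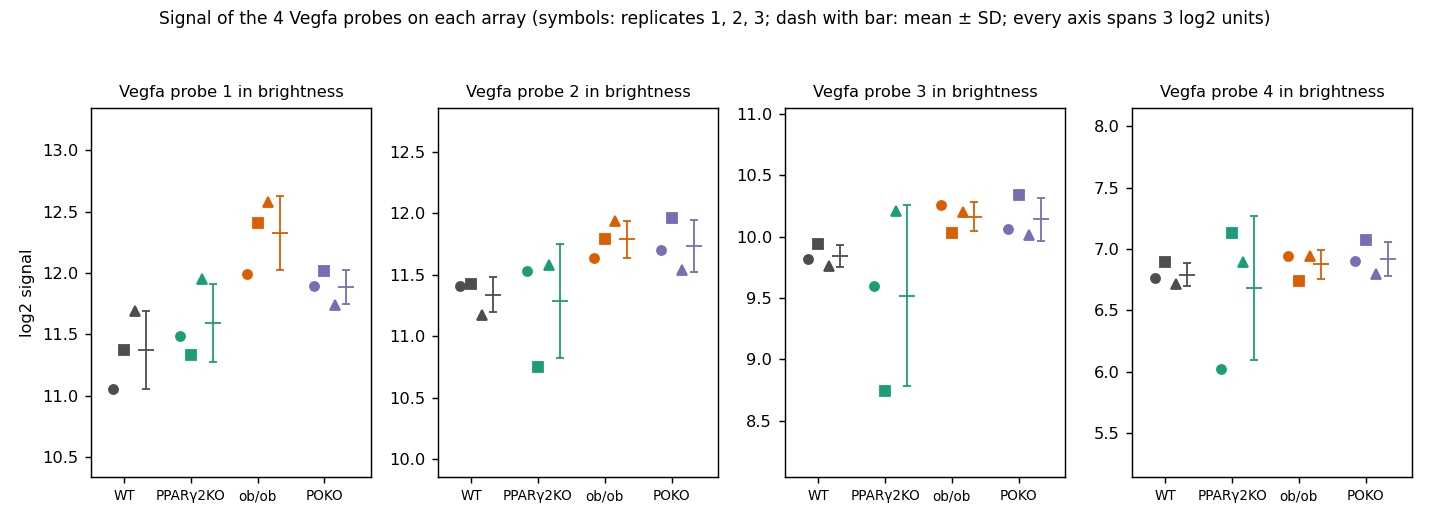
Quantile-normalized log2 signal (y axes, each 3 log2 units long) of the 4 probes of Vegfa on every array, ordered by mean brightness, with the mean ± SD (n = 3) beside the replicates. The ob/ob mean exceeds the WT mean by 0.95 on the brightest probe and by 0.45, 0.32 and 0.08 on the others.

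Vegfb, whose product binds FLT1, read 10.18, 10.096 and 10.35 in WT, 10.76, 10.79 and 10.45 in PPARγ2KO, 9.92, 10.85 and 11.32 in ob/ob and 10.57, 10.11 and 10.26 in POKO. The spread among the ob/ob arrays covered the whole range of the other genotypes. Vegfc, the lymphatic ligand, read 7.26, 7.32 and 7.79 in WT, 6.86, 7.71 and 7.89 in PPARγ2KO, 8.04, 8.10 and 7.48 in ob/ob and 7.67, 8.22 and 7.67 in POKO, and Pgf, placental growth factor, read 8.23, 8.37 and 8.97 in WT, 8.93, 8.27 and 9.36 in PPARγ2KO, 9.41, 9.09 and 9.46 in ob/ob and 8.84, 9.42 and 9.06 in POKO. For Pgf the ob/ob arrays lay above the WT arrays, and for Vegfc they overlapped. None of these ligands was called, the change in ob/ob vs. WT being 0.49 ± 0.30 (SE), adjusted p = 0.303 for Vegfb, 0.42 ± 0.30 (SE), adjusted p = 0.366 for Vegfc and 0.79 ± 0.29 (SE), adjusted p = 0.102 for Pgf.

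None of the 5 VEGF receptors and co-receptors was called in ob/ob vs. WT. An unadjusted p below 0.05 (limma) was reached by 4, against 31.1% of all probes. Of these, 3 were higher in ob/ob and 1, Nrp1, was lower. Kdr, the main signalling receptor, read 9.29, 8.65 and 9.63 in WT, 9.19, 9.75 and 9.93 in PPARγ2KO, 10.21, 9.75 and 9.999 in ob/ob and 9.26, 9.90 and 9.54 in POKO, and its log2 fold change was 0.79 ± 0.29 (SE), adjusted p = 0.0978. Flt1, the high-affinity receptor that also acts as a trap for VEGF-A, read 8.89, 8.498 and 9.83 in WT, 9.40, 9.64 and 10.43 in PPARγ2KO, 10.38, 10.13 and 10.35 in ob/ob and 10.12, 10.39 and 9.93 in POKO. On both genes the ob/ob arrays were above the WT arrays, and PPARγ2KO replicate 3 was inside or above the ob/ob range. Flt1 was close to the limit, at 1.21 ± 0.35 (SE), adjusted p = 0.0546, and its second probe gave 0.97, adjusted p = 0.0881. Flt4 was above background on 1 ob/ob array only, and Nrp2, a co-receptor for VEGF-C, had a log2 fold change of 0.38.

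Nrp1, a co-receptor for VEGF-A and for semaphorins, was the member with the lowest value in ob/ob vs. WT and was named for that. It read 9.27, 9.20 and 8.94 in WT, 9.16, 8.49 and 9.09 in PPARγ2KO, 8.75, 8.11 and 7.31 in ob/ob and 8.89, 9.02 and 9.05 in POKO. On this brightest probe the ob/ob arrays were below all WT arrays and below all POKO arrays, and they were far apart from each other. The log2 fold change was −1.08 ± 0.32 (SE), adjusted p = 0.0593 in ob/ob vs. WT and 0.93 ± 0.32 (SE), adjusted p = 0.531 in POKO vs. ob/ob, neither of which passed. The second probe gave −0.46, adjusted p = 0.235 in ob/ob vs. WT. It read 7.27, 6.33 and 6.31 in ob/ob, against 7.26, 6.93 and 7.09 in WT and 6.61, 7.08 and 6.70 in POKO. There ob/ob replicate 1 was above all WT and all POKO arrays. Without ob/ob replicate 1, the highest of the 3, Nrp1 was called lower in ob/ob vs. WT, and so it was with 75th percentile scaling, with the filter on dim probes and with array weights.

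In the angiopoietin and TIE system, Tie1 was called. It read 6.27, 6.01 and 6.96 in WT, 6.88, 7.29 and 7.56 in PPARγ2KO, 7.75, 7.34 and 7.73 in ob/ob and 6.90, 7.63 and 6.89 in POKO. The ob/ob arrays were above all WT arrays but overlapped with PPARγ2KO and POKO. Tie1 had a log2 fold change of 1.19 ± 0.30 (SE), adjusted p = 0.0379. Tek, the angiopoietin receptor, read 5.59, 5.03 and 5.73 in WT, 5.23, 5.71 and 6.68 in PPARγ2KO, 6.74, 6.44 and 6.34 in ob/ob and 6.34, 6.65 and 6.17 in POKO. All ob/ob and POKO arrays were above all WT arrays, and PPARγ2KO replicate 3 was as high as the obese arrays. Its log2 fold change was 1.06 ± 0.34 (SE), adjusted p = 0.0725. Angpt2, the ligand released by activated endothelium, read 10.39, 9.53 and 10.85 in WT, 10.22, 10.05 and 10.77 in PPARγ2KO, 10.78, 10.52 and 10.44 in ob/ob and 10.18, 10.74 and 10.31 in POKO, with overlapping genotypes and 0.33 ± 0.32 (SE), adjusted p = 0.513. Angpt1, the ligand made mostly by perivascular cells, was not well above background on any array, so no change can be given for it. Neither lymphatic marker was called. Lyve1, the hyaluronan receptor of lymphatic endothelium and some macrophages, read 5.49, 6.26 and 6.40 in WT, 5.77, 8.14 and 6.71 in PPARγ2KO, 7.47, 6.13 and 5.10 in ob/ob and 6.55, 6.75 and 5.30 in POKO, and Prox1, a lymphatic transcription factor that some islet cells also express, read 3.71, 3.73 and 4.60 in WT, 4.01, 3.605 and 4.05 in PPARγ2KO, 3.73, 3.602 and 3.76 in ob/ob and 3.62, 3.40 and 3.11 in POKO, with Prox1 above background on 5 arrays. In ob/ob vs. WT the values were 0.18 ± 0.73 (SE), adjusted p = 0.892, for Lyve1 and −0.31 ± 0.24 (SE), adjusted p = 0.400, for Prox1.

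In POKO islets most members also read higher than in WT. In POKO vs. WT, 33 of the 36 members were above 0, against 35.9% of all probes, with a median log2 fold change of 0.52, against −0.08 for all probes, and the 12 genes called in ob/ob vs. WT were all above 0, at 0.51 to 1.99. None of the 36 was called (0.194% of all probes were, with limma), and the smallest adjusted p was 0.0704 (Icam2, 1.99 ± 0.36), while 18 had an unadjusted p below 0.05, against 16.4% of all probes. The count was 2 with 75th percentile scaling, 2 with the filter on dim probes and 2 without PPARγ2KO replicate 1 (Icam2 and Cd34 each time), 1 without PPARγ2KO replicate 2 or on the genotypes compared alone (Icam2 both times), 5 without WT replicate 3 and 12 with array weights. Both comparisons use the same WT arrays. The difference itself, POKO vs. ob/ob, had 5 of 36 members above 0, against 54.1% of all probes, and a median of −0.31, with 0 called (0.00486% of all probes) and 1, Nrp1, at an unadjusted p below 0.05, against 9.28% of all probes. No member was therefore shown to differ between the obese genotypes.

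PPARγ2KO islets also read higher than WT islets for most members, with 32 of 36 above 0, against 41.6% of all probes, and a median log2 fold change of 0.47, against −0.03 for all probes. None was called (no probe on the array was, 0%), the smallest adjusted p was 0.442 for Vwf (1.79 ± 0.48), and 10 had an unadjusted p below 0.05, against 9.37% of all probes. The order of the genotype means for the 12 genes called in ob/ob vs. WT was WT, PPARγ2KO, POKO, ob/ob for 8 of them (Cdh5, Plvap, Robo4, Esam, Icam2, Cd34, Mmrn2 and Vegfa) and WT, POKO, PPARγ2KO, ob/ob for 4 (Egfl7, Ramp2, Sox18 and Tie1). These genes were picked for ob/ob above WT on the same arrays, so WT below ob/ob in this order comes from that choice. The neighbours in this order, PPARγ2KO and POKO, were not shown to differ for any member (0 called in POKO vs. PPARγ2KO, where 0.00971% of all probes were, 2 at an unadjusted p below 0.05, Pecam1 and Cd34, against 11.1% of all probes, and 22 above 0, against 41.9%). In ob/ob vs. PPARγ2KO 0 were called as well (0.00486% of all probes), 29 were above 0, against 42.0% of all probes, and 9 had an unadjusted p below 0.05, against 19.3%, with the smallest adjusted p for Cd34 (1.15 ± 0.30, adjusted p = 0.103). Without PPARγ2KO replicate 3, Pecam1 was called in POKO vs. PPARγ2KO, and Pecam1 and Cd34 in ob/ob vs. PPARγ2KO. Without ob/ob replicate 1, Nrp1 was called lower in ob/ob vs. PPARγ2KO.

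Set against both lean genotypes together, the mean of the obese genotypes was higher for 8 of the 36 members, against 4.23% of all probes called higher and 9.04% called in either direction. These were Cd34 (1.38 ± 0.21 SE, adjusted p = 0.0154), Icam2 (1.52 ± 0.25 SE, adjusted p = 0.0182), Cdh5 (0.77), Pecam1 (1.21 ± 0.29 SE, adjusted p = 0.0383), Vegfa (0.62 ± 0.16 SE, adjusted p = 0.0411), Esam (0.87), Mmrn2 (0.99) and Robo4 (0.97). Only for Icam2 and Cd34 were all obese arrays above all lean arrays, against 1.55% of all probes. With the slide as a block Mmrn2 was no longer called, with 75th percentile scaling Vegfa, Mmrn2 and Robo4 were not, and Vegfa was not when its probes were averaged. The median over the members was 0.45, against −0.06 for all probes, 31 were above 0, against 39.6% of all probes, and 19 had an unadjusted p below 0.05, against 28.2%. Cd34 was called in this comparison whichever array was left out, but the count fell to 2 without WT replicate 1, 1 without WT replicate 2, 2 without PPARγ2KO replicate 1, 3 without PPARγ2KO replicate 2, 5 without ob/ob replicate 1 (4 higher, and Nrp1 lower), 2 without ob/ob replicate 2 or 3 and 1, 2 and 2 without POKO replicate 1, 2 and 3, and it rose to 14 without WT replicate 3.

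The absence of PPARγ2 went with higher values on the lean background and lower ones on the obese background for most members. The interaction, which takes PPARγ2KO vs. WT away from POKO vs. ob/ob, was above 0 for 2 of 36 members, against 56.0% of all probes, with a median of −0.85 against 0.04 for all probes. All 25 endothelial-enriched members (the junction and surface genes, Nos3, Ramp2, Aplnr, the transcription factors, Kdr, Flt1, Flt4, Tek and Tie1) were below 0. None passed the adjusted limit (no probe did, 0%), 11 had an unadjusted p below 0.05 against 13.9% of all probes, and 10 of these 11 were below 0. The smallest adjusted p was for Sox18 (−1.72 ± 0.44 SE, adjusted p = 0.257), and the next for Egfl7 (−1.45 ± 0.42 SE, adjusted p = 0.270) and Ramp2 (−1.41 ± 0.41 SE, adjusted p = 0.270). Without WT replicate 3, Plvap and Sox18 were called, both below 0.

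The members moved together from array to array within a genotype too. Among the 12 genes, WT replicate 3 was the highest WT array for 11 and WT replicate 2 the lowest for 10, PPARγ2KO replicate 1 was the lowest of its genotype for 10, and POKO replicate 2 was the highest of its genotype for 11. Taken as the median deviation of the 25 endothelial-enriched members from their 12-array means, in log2 units, the level was −0.70, −1.09 and −0.14 in WT, −0.38, 0.08 and 0.33 in PPARγ2KO, 0.57, 0.34 and 0.65 in ob/ob and −0.03, 0.48 and 0.03 in POKO. The ob/ob arrays were thus above all WT arrays, while the POKO and PPARγ2KO arrays overlapped.

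Other endothelial genes, a list of 29 measured genes apart from the members and also chosen with earlier results known, were higher in ob/ob too. In ob/ob vs. WT 13 of the 29 were called, all higher, against 4.92% of all probes called higher, with a median log2 fold change of 0.93. Among them were Rasip1 (1.07 ± 0.18 SE, adjusted p = 0.0186), a RAS-interacting protein of vessel lumens, Gpihbp1 (1.88 ± 0.36 SE, adjusted p = 0.0249), which anchors lipoprotein lipase on capillaries, the ETS factor Fli1 (1.79 ± 0.36 SE, adjusted p = 0.0270), Ushbp1 (1.39) and the adhesion G protein-coupled receptor Adgrf5 (1.46). Car4, called as well, was above background on 1 array. In obese vs. lean 11 of the 29 were called higher, against 4.23% of all probes, but 0 without POKO replicate 1, 1 without WT replicate 1 or 2, PPARγ2KO replicate 1 or POKO replicate 2, 2 without POKO replicate 3, 3 and 4 without ob/ob replicates 3 and 2, and 9 to 12 without any other array. In POKO vs. WT 0 of 29 were called, with a median of 0.64. The count in ob/ob vs. WT was 0 without WT replicate 1 or 2, 1 without ob/ob replicate 2 or 3, 7 without any 1 of the POKO arrays and 10 to 15 without any other array. Pericyte and smooth muscle genes, the cells that wrap capillaries and arterioles, had 4 of 14 called in ob/ob vs. WT, all higher. This was against 4.92% of all probes called higher, and the list median was 0.99. The 4 were Notch3 (1.03 ± 0.13 SE, adjusted p = 0.0117), Rgs5 (1.46 ± 0.23 SE, adjusted p = 0.0175), Kcnj8 (2.04) and Abcc9 (1.76), the latter pair being subunits of the vascular ATP-sensitive potassium channel. The count was 1 without WT replicate 1 or 2 or ob/ob replicate 2 or 3, 2 without ob/ob replicate 1 or any POKO array, and 3 to 5 without any other array. Of the 14 genes 3 were below 0 in ob/ob vs. WT. The median deviation of the list from its 12-array means was −0.60, −0.69 and 0.04 in WT and 0.43, 0.45 and 0.01 in ob/ob. These genotypes thus overlapped for the pericyte list. In obese vs. lean 2 were called higher, against 4.23% of all probes, with a median of 0.18. In POKO vs. WT and in PPARγ2KO vs. WT 0 were called, with medians of 0.27 and 0.49.

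Of 19 measured genes that cells switch on in hypoxia, 5 were called higher in ob/ob vs. WT, against 4.92% of all probes. They were P4ha1 (1.29 ± 0.22 SE, adjusted p = 0.0190), Adm (0.99 ± 0.17 SE, adjusted p = 0.0204), Ankrd37 (1.60), Egln3 (1.28) and Bnip3 (2.83-fold). Only Ddit4 (−0.57) was called lower, against 6.14% of all probes, and the list median was 0.32. The count called higher was 0 without ob/ob replicate 3, 2 without ob/ob replicate 2, 1 without WT replicate 1 or 2, and 4 or 5 without any other array, and Ddit4 was lost without 9 of the 12 arrays. Adm, the gene of adrenomedullin, the ligand of the RAMP2 receptor, was the single gene of all 9 lists called in POKO vs. WT (1.18 ± 0.17 SE, adjusted p = 0.0398). Car9, a carbonic anhydrase of hypoxic cells, fell in obese vs. lean (−1.20 ± 0.32 SE, adjusted p = 0.0479), a call that was lost without any 1 of 11 arrays and stayed only without ob/ob replicate 1. Of 30 genes of signal transduction downstream of VEGF, 1 was called higher and 4 lower in ob/ob vs. WT, against 4.92% and 6.14% of all probes. The 4 were Nfatc2 (−0.95 ± 0.18 SE, adjusted p = 0.0249), Hras (−0.76), Pxn (−0.70) and Sphk1 (−1.35). The list median was −0.20. In obese vs. lean Map2k2 (−0.31 ± 0.05 SE, adjusted p = 0.0209) was 1 of 3 called lower, beside 1 called higher, and 0 were called lower without WT replicate 2 or POKO replicate 1 or 2. The number called lower in ob/ob vs. WT was 0 without WT replicate 2 or ob/ob replicate 2, 1 without WT replicate 1 or ob/ob replicate 3, 3 to 5 without a PPARγ2KO or POKO array, 7 without WT replicate 3 and 8 without ob/ob replicate 1. The number called higher was 0 without WT replicate 1 or 2 or ob/ob replicate 2 or 3, and 4 without WT replicate 3.

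The remaining lists had few calls in ob/ob vs. WT, with shares to be read against the 4.92% of all probes called higher and the 6.14% called lower. Of 10 endothelial adhesion molecules Jam2 rose (1.49 ± 0.31 SE, adjusted p = 0.0277) and F11r, also an epithelial junction gene, fell (−0.71 ± 0.12 SE, adjusted p = 0.0180). Of 21 Notch, ephrin and arteriovenous genes the ligand Jag2 rose (1.15) and the target Hes1 fell (−0.73), 1 of 21 each way, close to the share of all probes. Of 15 angiogenesis inhibitors the chemokine Cxcl10 rose (1.22), and of 11 vascular basement membrane genes Nid2 rose (0.69). The medians of these 4 lists were 0.45, 0.19, −0.11 and 0.35. Each of the calls on Jam2, Jag2, Hes1, Cxcl10 and Nid2 was lost without WT replicate 1 or 2 or ob/ob replicate 2 or 3, some without other arrays too, and that on F11r was lost without WT replicate 2 or ob/ob replicate 2 or 3. Of 11 genes of lymph node stroma and high endothelial venules 0 were called in ob/ob vs. WT and 6 had an unadjusted p below 0.05 (limma), against 31.1% of all probes. Glycam1, a mucin of high endothelial venules, was called in obese vs. lean (adjusted p = 0.0462), a call that was lost without any 1 of 9 arrays (all but WT replicate 3, ob/ob replicate 1 and POKO replicate 2). It was above background on 0 WT, 2 PPARγ2KO and all 6 obese arrays, with ob/ob at least 4.84-fold higher than WT (adjusted p = 0.0508).

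**Figure D3:**
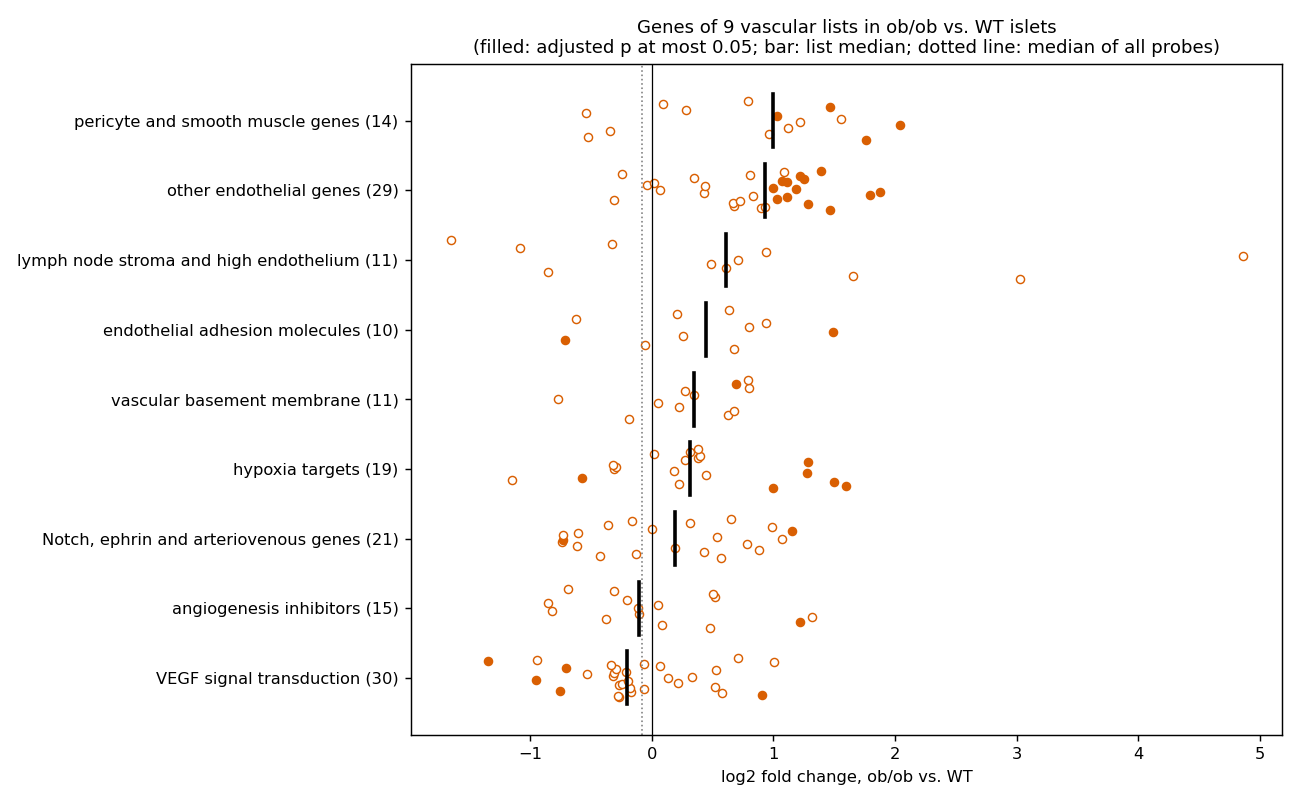
Fitted log2 fold change in ob/ob vs. WT (x axis) of every measured gene of 9 vascular lists (rows, with the number of genes), with filled points for an adjusted p of at most 0.05 and a bar at the list median. The medians of the pericyte and other endothelial lists, 0.99 and 0.93, stand furthest to the right of the median of all probes, −0.08.

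Markers of other cells moved on the same arrays. The summed signal of 7 T cell genes was 434 to 461 in WT, 268 to 1386 in PPARγ2KO, 954 to 2549 in ob/ob and 589 to 1776 in POKO, and that of 7 B cell genes 97.8 to 118 in WT, 120 to 2752 in PPARγ2KO, 1237 to 3688 in ob/ob and 1130 to 3358 in POKO. In ob/ob vs. WT 5 of the 7 T cell genes (Cd3d, Cd3g, Cd8a, Cd2 and Lck) and, of the B cell genes, Cd79b, Ms4a1 and Blk were called higher, against 4.92% of all probes. On the WT arrays 3 or 4 of the T cell and 3 of the B cell genes were above background. Both erythroid genes, Hba-a1 and Alas2, rose as well, their summed signal being 158 to 673 in WT, 323 to 828 in PPARγ2KO, 1597 to 5568 in ob/ob and 1100 to 2901 in POKO. The part of these cells in the endothelial result was not tested. PPARγ2KO replicate 2 carried T and B cell genes at obese levels (deviations of 1.56 and 1.46), where PPARγ2KO replicates 1 and 3 did not. Its endothelial level of 0.08 lay between theirs, its Pecam1 signal was the lowest of all 12 arrays and its Icam2 signal the highest of the lean arrays.

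Acinar genes gave no such shift in the normalized values. They lie near the top of every array, where quantile normalization makes the arrays alike. Their flat signal therefore cannot show whether acinar content was equal. All 11 were above background on all arrays, with a summed signal of 2201971 to 2722103 over the 12 arrays, and 0 were called in ob/ob vs. WT (median −0.06). Of 8 duct genes Krt19, Sox9 and Cftr fell in ob/ob vs. WT (list median −0.60), against 6.14% of all probes called lower. Of 7 beta cell genes Nkx6-1 rose, and the summed signal was 633482 to 872993 in WT and 880953 to 941080 in ob/ob. On all 12 arrays the beta cell sum lay below the acinar sum, but these sums cover 7 and 11 genes and do not compare cell content. The part of exocrine tissue in the endothelial signal was not tested. The glial gene S100b (1 of 3 neural genes) and the lipid carrier gene Fabp4 (1 of 5 adipocyte genes), which capillary endothelium also makes, rose. None of the alpha (4), delta (2), PP (1), fibroblast (7), macrophage (7) or platelet (4) genes was called in ob/ob vs. WT. The macrophage gene Csf1r was called in obese vs. lean, at 1.05 ± 0.28 (SE), adjusted p = 0.0474.

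**Figure D4:**
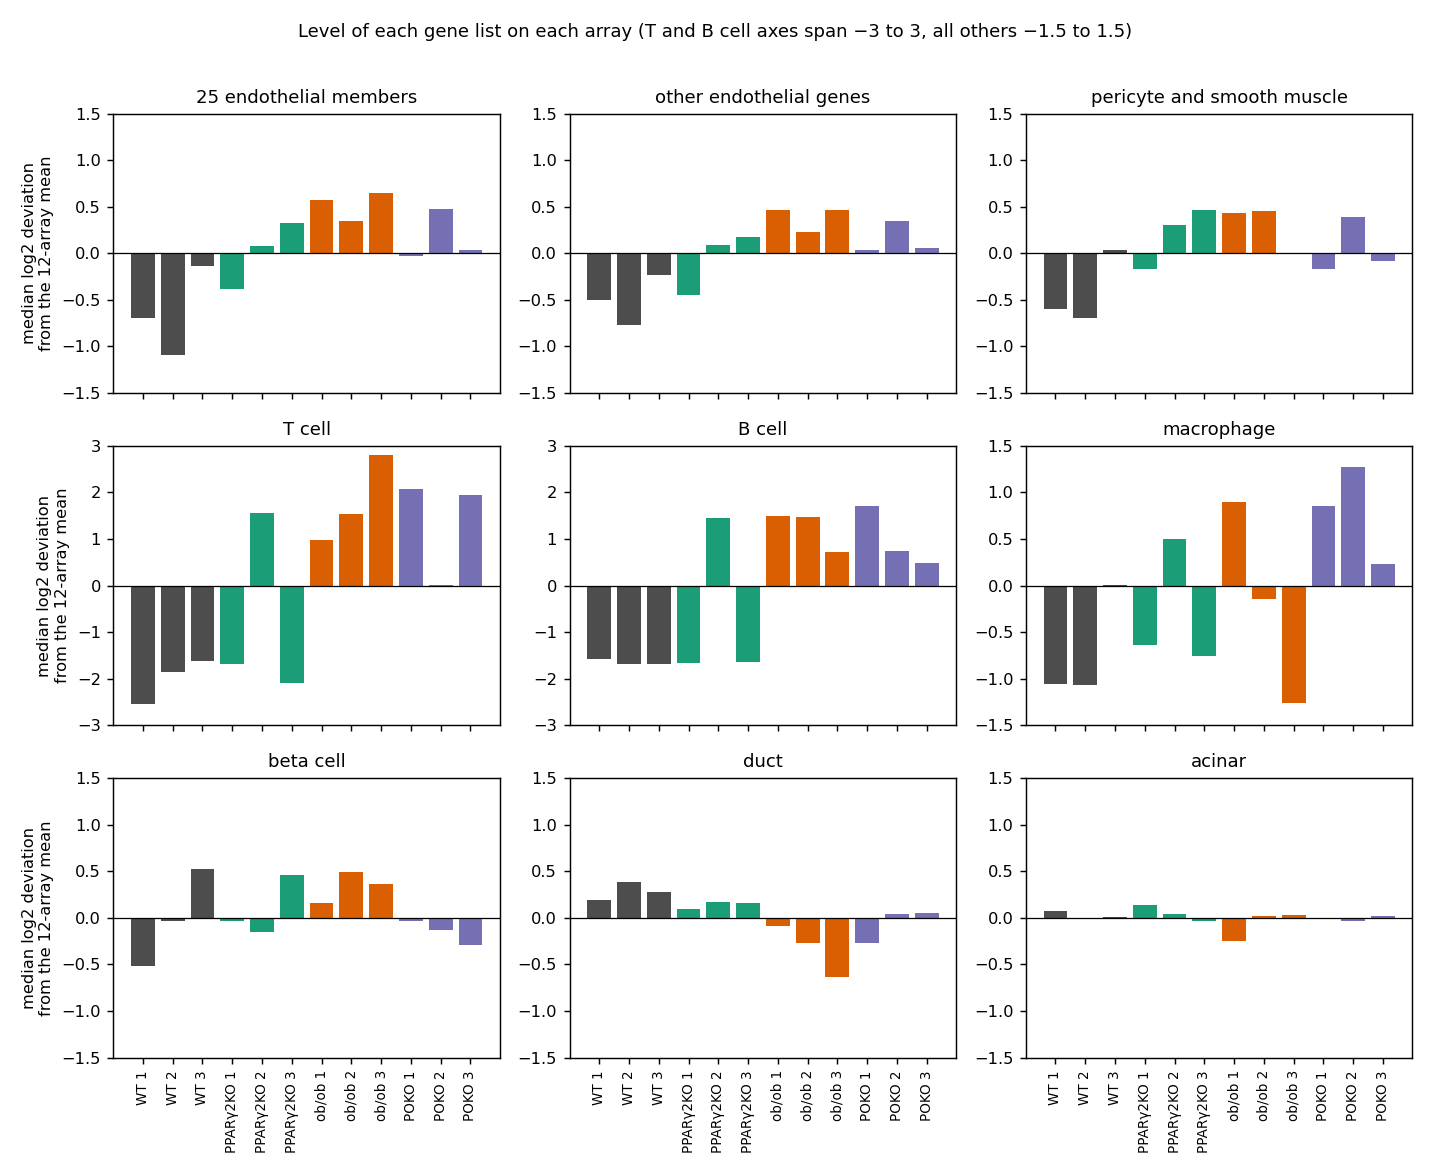
Median log2 deviation of the genes of each list from their 12-array means (y axis) on every array (bars, coloured by genotype), with wider axes for T and B cell genes. The 25 endothelial members read −1.09 to −0.14 on the WT arrays and 0.34 to 0.65 on the ob/ob arrays, and T and B cell genes were high on PPARγ2KO replicate 2 and on the obese arrays, except T cell genes on POKO replicate 2 (0.01).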

How the data were processed

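Scanner files deposited for 12 one-colour Agilent 4x44K arrays were the starting point. Per the file headers, Agilent Feature Extraction 10.1.1.1 had measured the spots and subtracted a background, so the processed signal is an intensity with no scaling between arrays. The authors' table of normalized log2 values, also deposited, served as an alternative. Here the processed signal of 43379 non-control spots was quantile-normalized and put on the log2 scale, 919 outlier spots were left out, no spot was saturated, and spots of a probe were averaged to 41174 probes (R 4.3.3, limma 3.58.1). RefSeq accessions gave 25097 probes a symbol. One limma model of genotype over the 12 arrays gave 8 comparisons, with Benjamini-Hochberg adjustment across the probes and a call at an adjusted p of at most 0.05. P values measure the spread between pooled samples. The number of arrays limits the precision.

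The members and the gene lists were chosen with earlier results of these data known. Values per array are given for members called in any comparison, for the defining endothelial markers, the VEGF ligands, Flt1, Angpt2 and the lymphatic genes. From each list up to 5 genes with the smallest p among those called in ob/ob vs. WT or obese vs. lean are named. A few further genes were named after their values were seen. Of the listed genes Tal1, Lamc1, Vhl, Ccl21b, Prss1, Iapp, Cd68, Trac, Hbb-b1 and Sox10 matched no probe, and a few calls in the lists are not reported here. Replicate numbers and slides coincide per the file headers. Deviations of arrays with the same number correlated at −0.32 to 0.28 (median 0.00) over 18 pairs. Alternatives were the 75th percentile, normexp, quantiles of log2 values, a filter on dim probes, outlier spots kept, the genotypes compared alone, the slide as a block, array weights, the authors' values, a fold criterion, averaging the probes of each gene, and each array left out. The fit was tested on simulated data. Coordinates of the arrays (build mm9) were not used, and promoter windows are from RefSeq (GRCm38.p6).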

Additional observations from a re-analysis of the deposited data

How the results depend on the processing

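The number of members called was recomputed with up to 11 alternatives that keep all arrays and with each of the 12 arrays left out. In ob/ob vs. WT it was 12, and became 2 on the genotypes compared alone and 21 with array weights (0 to 18 with 1 array left out). In POKO vs. WT it was 0, and became 2 with 75th percentile scaling, 2 with the filter on dim probes, 1 on the genotypes compared alone and 12 with array weights (0 to 5 with 1 array left out). In obese vs. lean it was 8, and became 5 with normexp, 13 with array weights, 3 with an added log2 fold limit of 1, 6 with 75th percentile scaling (5 of the 8, and Tek), 11 with the filter on dim probes and 7 when probes were averaged (1 to 14 with 1 array left out). With array weights 1 member (Nrp1) was called in POKO vs. ob/ob and 2 (Cd34 and Vegfa) in ob/ob vs. PPARγ2KO. With 1 array left out the ranges were 0 to 0 in PPARγ2KO vs. WT and in POKO vs. ob/ob, 0 to 1 in POKO vs. PPARγ2KO, 0 to 2 in ob/ob vs. PPARγ2KO and 0 to 2 in the interaction. The cause of these moves was not tested. With the replicate number, which is the slide, as a block the counts were 12 in ob/ob vs. WT, the same genes, and 7 in obese vs. lean, where Mmrn2 (adjusted p = 0.0583) was lost, and the block changed no other call among the members. The sign of the members' median log2 fold change was kept under every alternative in all 8 comparisons. It ranged from 0.49 (normexp) to 1.07 in ob/ob vs. WT and from −1.04 to −0.52 (normexp) in the interaction. Normexp was run on the median signal, chosen after seeing the data, because the files used here carry no mean signal, and the planned version was not run. The filter on dim probes kept 24297 probes and 32 of the 36 members. Leaving out arrays for the gene lists was also added after seeing the data. Genes near background (Angpt1, Flt4, Clec14a, Prox1 and Erg) are limited by signal.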
